A study of Mus musculus with 9 samples.

Results

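Epithelial cells sorted from mouse kidney were compared with the small intestinal epithelial cells that carry the most MHC class II on their surface, across every non-control probe of a whole-genome microarray. The comparison used 6 of the 9 arrays of the study: 3 of kidney epithelium and 3 of the intestinal MHCIIhi fraction. The intestinal MHCIIlo arrays were left out. All mice were of the C57BL/6 background, and each replicate pooled cells of 4 mice for kidney and of 3 mice for intestine. Kidneys had been minced and digested with collagenase, dispase and DNAse, and the cells were sorted as positive for Epcam, the epithelial adhesion molecule, and negative for CD45, the surface protein of blood-derived cells. Opened small intestines had been incubated with EDTA, which releases epithelium without a protease, and the cells were sorted as high for Epcam, high for MHC and negative for CD45. Fluorogold removed dead cells from both. The tissues were therefore released differently, and the labels give neither age nor sex.

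The kidney tubule is a chain of segments that recover filtered salt, water, sugar and protein, and each segment is known by its own transporters: the proximal tubule by endocytic receptors and phosphate and glucose carriers, the thick ascending limb by uromodulin and the NKCC2 cotransporter, the distal convoluted tubule by the thiazide-sensitive cotransporter, and the collecting duct by water channels, sodium channels and proton pumps. The small intestinal epithelium renews itself continuously from stem cells at the crypt base. Its absorptive enterocytes digest and take up nutrients, while goblet, Paneth, enteroendocrine and tuft cells secrete mucus, antimicrobial peptides, hormones and alarm signals. Both epithelia can show MHC class II, which presents peptides to CD4 T cells.

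A level below is the log2 signal of a gene's brightest probe relative to the 75th percentile of its array, so that 0 is the level of a fairly bright probe. A difference is kidney minus MHCIIhi on that log2 scale. A gene was tested where either group had its probe clearly over background on every array, and it was called where the difference was at least 1 and the Benjamini-Hochberg adjusted p from limma was below 0.05. Of 28479 genes on the array, 19859 were tested. Where no array of the dim group was above background, the size is given as "at least" a fold. That fold sets the bright group's mean against the lowest signal that counted as measured on each dim array, or the probe's own signal where higher. Where only some dim arrays were above background, the difference is given, at times with such a bound. A difference that takes in dim arrays not above background rests in part on unmeasured values. Members of a list that passed the test of detection through their bright group alone had to differ, so the counts of a list describe its measured members and support nothing more.

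Between 60.9% and 73.2% of spots were well above background on the 6 arrays, more on each kidney array than on each MHCIIhi array, and no spot was saturated. Pearson correlations over genes, which are not independent of one another, were 0.981 to 0.995 within kidney, 0.973 to 0.987 within MHCIIhi and 0.673 to 0.697 between the groups. The kidney arrays shared 1 slide that held no MHCIIhi array, so slide and tissue cannot be told apart. With the slide as a random block, the calls of Ptprc, Acadm, Hmgcs1, Slc22a6, Isg15, Cubn, Nr3c2, Slc9a3 and Ppargc1a, described below, were lost. In such sorted bulk samples, fewer cells of a type and less RNA per cell cannot be told apart either.

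Kidney replicate 1 stood apart from kidney 2 and 3. Xist, the RNA of the inactive X chromosome, was at 4.68 on kidney 1 and at -7.41 and -7.09 on kidney 2 and 3, beside 5.09, 4.95 and 5.06 on the MHCIIhi arrays. Ddx3y, a Y-linked gene, was at -8.12 on kidney 1 and at 1.05 on both kidney 2 and 3, and Eif2s3y, Kdm5d and Uty had the same order. None of these Y-linked genes was above background on kidney 1 or on any MHCIIhi array. Kidney 1 thus matched the intestinal pools in these genes, and kidney 2 and 3 did not. Kidney 2 and 3 therefore differed from every intestinal pool in these genes as well as in tissue. The part of this in other differences between the groups was not tested. Among 19181 genes measured on all kidney arrays, kidney 1 lay at least 2 above the mean of the other kidney arrays for 167 genes and at least 2 below it for 25. Kidney 2 and 3 were that far apart for 18 genes. For some of the genes with kidney 1 far from the other kidney arrays, the difference without kidney 1 is given below. For others, such as Lrp2, Kap and Atp6v1g3, it is not given.

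The kidney and intestinal cells differed in 48.1% of the tested genes. Of these 9562 genes, 5159 were higher in kidney, which is 26% of the genes tested, and 4403 were lower, which is 22.2%. Counts of called genes in the lists and families below are to be read against these shares. For 5174 genes the 95% interval of the difference lay within -1 and 1. The 3 kidney arrays lay all above the 3 MHCIIhi arrays for 36.7% of tested genes and all below them for 35.5%, 72.2% in either direction, and the statements below that groups did not overlap are to be read against these shares. An unadjusted p below 0.05 was reached by 6939 genes in the direction of kidney and 6593 in that of the intestine. The share of calls that were higher in kidney was 54%, and it fell to 41.5% among genes above background on all 6 arrays and to 39.2% with no filter on dim genes. With the authors' value table it was 44.6%, with the median gene shifted by -0.28, so list medians of that size have no settled sign. Differences of at least 5 were seen for 768 genes in the direction of kidney and 515 in the other. No MHCIIhi array was above background by any probe for 1683 of the genes higher in kidney, and no kidney array for 346 of those lower. The lowest signal that counted as measured was at -5.8, -6.03 and -6.11 on kidney 1, 2 and 3. On MHCIIhi 1, 2 and 3 it was at -5.37, -5.13 and -4.62. Measurement thus reached lower in kidney, and its part in these counts was not tested.

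**Figure D1:**
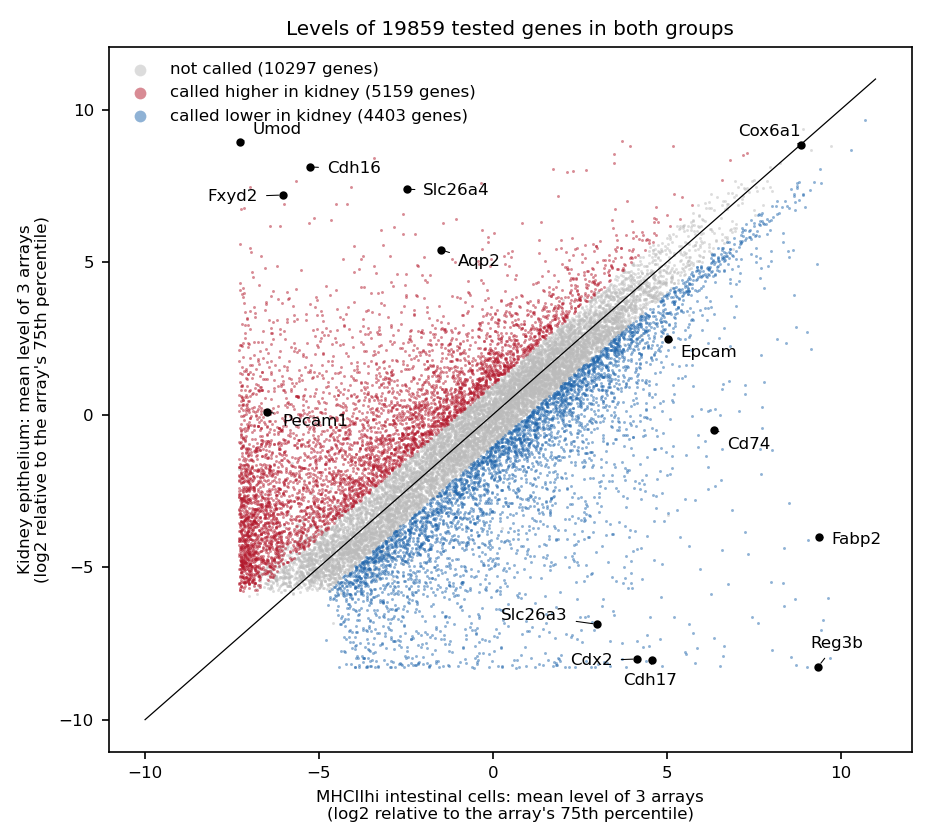
Mean level of each tested gene on the 3 kidney arrays (vertical axis) against the 3 MHCIIhi arrays (horizontal axis), both log2 relative to the array's 75th percentile; the line marks equal levels, and colours mark 5159 genes called higher and 4403 called lower in kidney. Umod and Reg3b lie at opposite corners, with differences of 16.20 and -17.61, and Cox6a1 lies on the line.

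The sorting genes were read first, as a check of the gates and not as results. Epcam was at 3.16, 2.28 and 2.03 on kidney 1, 2 and 3 and at 4.85, 4.95 and 5.31 on MHCIIhi 1, 2 and 3. All kidney arrays lay below all MHCIIhi arrays, by 2.55 with a standard error of 0.32 (adjusted p = 0.00050, limma), in the direction of the positive gate for kidney and the high gate for intestine. H2-Ab1, the beta chain of the class II molecule I-A, was at 0.90, 0.99 and 0.59 in kidney and at 6.51, 6.47 and 6.78 in MHCIIhi cells. Cd74, whose product holds class II molecules until peptide loading, was at 0.04, -0.85 and -0.69 against 6.34, 6.34 and 6.44. Class II genes were thus measured on every kidney array at a far lower level, and the groups did not overlap. Ptprc, the gene of CD45, was low in both groups, at -0.77, -1.0 and -1.17 in kidney and at -1.55, -3.52 and -2.22 in MHCIIhi cells. Its difference of 1.45 (adjusted p = 0.034) turned to -0.24 when the probes of the gene were averaged. It was no longer called with MHCIIhi 2 left out (0.91), MHCIIhi 3 (1.56), kidney 1 (1.35), kidney 2 (1.46) or kidney 3 (1.55).

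The thick ascending limb was represented by bright genes that the intestinal cells lacked or barely showed. Of its 17 tested markers, 16 were higher in kidney and none lower, and the 17th, Cldn14, differed by 0.65 and was not called. Their median difference was 9.17, beside a median of 0 over all genes. It was 7.38 with bounds, where called genes not above background on every array of the dim group were set to their lower bound. Umod, which encodes the most abundant protein of normal urine, was at 8.87, 8.95 and 8.95 in kidney and at -7.63, -7.45 and -6.76 in MHCIIhi cells. It was bright on every kidney array and not above background on any intestinal array, which makes it at least 16000-fold higher (difference 16.20, standard error 0.25, adjusted p = 2.4e-07). Its probe lies on chromosome 7, 119254164 to 119254223, in the mm8 coordinates of the scanner files. Kcnj1, the potassium channel ROMK that returns potassium to the lumen, was at 6.41, 6.67 and 7.10 against -7.64, -7.30 and -6.76, at least 3480-fold higher. Slc12a1, the NKCC2 cotransporter and target of loop diuretics, was at 6.31, 5.93 and 6.32 in kidney and at -7.63, -7.44 and -4.20 in MHCIIhi cells. Its MHCIIhi value came above background on 1 array only, and the difference was 12.61, with a bound of at least 2178-fold. Egf, whose precursor is made in distal tubule cells, was measured on all 6 arrays, at 7.21, 7.44 and 7.72 against -3.83, -4.15 and -4.29. The kidney arrays lay far above the intestinal ones for each of these genes. Cldn16, a claudin needed for magnesium recovery, was at least 92.7-fold higher.

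The distal convoluted tubule had 11 of 12 tested markers higher in kidney and none lower, with a median difference of 5.98. Slc12a3, the thiazide-sensitive cotransporter NCC, was at 3.65, 4.02 and 4.50 in kidney and at -7.47, -7.11 and -4.42 in MHCIIhi cells, none of which was above background, so that it was at least 524-fold higher. Kcnj10, a basolateral potassium channel, was at least 481-fold higher. Its partner subunit Kcnj16 was at 4.44, 4.62 and 5.0 against -3.50, -4.90 and -3.61, a difference of 8.70 measured on all 6 arrays. Wnk4, a kinase that controls NCC, differed by 5.07 and Wnk1 by 2.22. Trpm6, the magnesium channel, differed by 1.08 and was not called, although it was without MHCIIhi 3 (1.57).

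Calcium recovery genes of the connecting tubule followed. Of 8 tested, 6 were higher in kidney and 1, the plasma membrane calcium pump Atp2b1, was lower (difference -1.80). Calb1, the calcium buffer calbindin-D28K, was at 6.41, 6.74 and 7.19 in kidney and at -7.50, -7.27 and -6.66 in MHCIIhi cells, at least 3620-fold higher. S100g, the other vitamin D-dependent calbindin, is a known enterocyte gene and was measured in both tissues, at 7.86, 8.10 and 8.21 against 1.77, 1.38 and 2.0. Kidney was higher for both calbindins without overlap. The calcium channel Trpv5 was at least 36.6-fold higher. Its relative Trpv6, above background on 1 MHCIIhi array, differed by 5.15, with a bound of at least 13.49-fold. Vdr, the vitamin D receptor, differed by -0.14 and was not called.

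Principal cells of the collecting duct take up water and sodium under hormone control. Of their 16 tested markers, 15 were higher in kidney, with a median difference of 6.37. Aqp2, the vasopressin-regulated water channel, was at 5.15, 5.42 and 5.63 in kidney and at -1.68, -1.59 and -1.21 in MHCIIhi cells, a difference of 6.89 (standard error 0.21, adjusted p = 1.7e-06). The vasopressin receptor gene Avpr2 was at least 203-fold higher, and Scnn1g, a subunit of the epithelial sodium channel, at least 511-fold. The remaining channel subunits were higher too, Scnn1b at least 351-fold and Scnn1a by a difference of 4.87. Fxyd4, which modulates the sodium pump in the collecting duct, was at 6.26, 6.13 and 6.13 against -7.16, -6.92 and -4.28, at least 2200-fold higher. Nr3c2, the aldosterone receptor, was the exception: it was lower in kidney, at -1.36, -1.48 and -1.63 against 0.31, -0.91 and 0.83. That difference of -1.57 had an adjusted p of 0.016, and it was not called without MHCIIhi 1 (-1.45) or without kidney 3 (-1.5). Nor was it called with the mean of the gene's probes (-0.91).

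Intercalated cells, which secrete acid or base through proton pumps and anion exchangers, had all 18 tested markers higher in kidney, with a median difference of 9.13, or 8.02 with bounds. The ammonia channel Rhcg was at 7.27, 6.84 and 6.63 in kidney and at -5.52, -5.88 and -6.63 in MHCIIhi cells, at least 3970-fold higher. Atp6v1g3, the kidney form of a proton pump subunit, was at 3.69, 6.32 and 5.99 against -7.44, -7.21 and -6.24. Kidney 1 was the lowest of the kidney arrays for it and still far above every intestinal array, and the gene was at least 1330-fold higher. Foxi1, the transcription factor of this cell type, was at 1.44, 0.98 and 0.38 against -7.58, -7.43 and -6.72, at least 63-fold higher. Slc4a1, the chloride-bicarbonate exchanger of acid-secreting cells and of red cells, differed by 8.94. Red cell markers other than Slc4a1 were not called, with Hba-a1, an alpha globin, at a difference of 1.17, although it was called without MHCIIhi 1 (1.9).

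A pair of neighbouring anion exchanger genes went opposite ways. Slc26a4, pendrin, which secretes bicarbonate from intercalated cells, was at 7.54, 7.44 and 7.18 in kidney and at -1.84, -3.02 and -2.59 in MHCIIhi cells. Slc26a3, the chloride-bicarbonate exchanger of the gut whose loss causes congenital chloride diarrhoea, was at -7.29, -7.50 and -5.84 in kidney, above background on 1 array, and at 2.15, 2.50 and 4.34 in MHCIIhi cells. Neither gene's groups overlapped. The differences were 9.87 and -9.87, with standard errors of 0.31 and 0.68. That of Slc26a3 rests in part on kidney values not above background, and its bound was at least 473.5-fold lower in kidney. In RefSeq GRCm38.p6 both genes lie on chromosome 12, Slc26a3 from 31433142 to 31473922 and Slc26a4 from 31519814 to 31560055.

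Some genes of the proximal tubule, like S100g of the connecting tubule, are shared with enterocytes. Of 28 tested proximal tubule markers, 18 were above background on at least 1 array of both groups. That held for 8 of 12 distal convoluted tubule markers and 6 of 8 connecting tubule markers. Of the 28 proximal markers, 22 were higher in kidney, 3 lower and 3 not called. The median difference was 5.6, or 4.51 with bounds. Without kidney 1 the counts were 20 higher and 4 lower, with a median of 5.02. Slc34a1, the phosphate carrier NaPi-IIa, was at 2.62, 2.69 and 2.60 in kidney and at -3.32, -3.94 and -3.76 in MHCIIhi cells, a difference of 6.31 (standard error 0.20). Lrp2, the endocytic receptor megalin, was at 4.93, 2.22 and 2.33 against -7.43, -7.16 and -6.63, with kidney 1 the highest. It was at least 294-fold higher. Kap, an androgen-responsive kidney gene, was at 8.22, 6.29 and 6.17 against -4.15, -4.43 and -5.0, a difference of 11.42 in which 2 MHCIIhi arrays were above background. Kidney 1 was again the highest, and the groups were far apart.

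Cubn, the vitamin B12 receptor cubilin that works with megalin in the kidney and takes up the intrinsic factor complex in the ileum, was lower in kidney. It was at 2.58, -0.67 and -0.88 in kidney and at 4.00, 3.19 and 4.94 in MHCIIhi cells, a difference of -3.70 (standard error 0.96, adjusted p = 0.014). The groups did not overlap, but kidney 1 lay close to the lowest intestinal array. Without kidney 1 the difference was -4.81. With the slide as a random block it was -3.82 and not called (adjusted p = 0.092). Slc13a1, a sulfate carrier of kidney and ileum, was at -1.20, -0.48 and -0.35 against 3.01, 2.12 and 4.39. Slc4a4, the basolateral bicarbonate cotransporter, differed by -1.79. Slc5a12 and Slc22a12, a lactate and a urate carrier, differed by -0.08 and 0.54 and were not called, nor was the scaffold Pdzk1 at -0.96.

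Summed over its list, the signal of proximal tubule genes was 640, 240 and 206 times the 75th percentile on kidney 1, 2 and 3 and 75.8, 52.7 and 109 times on MHCIIhi 1, 2 and 3. That of the thick ascending limb was 930, 983 and 1110 against 0.546, 0.422 and 0.86. Kidney 1 thus carried the most proximal signal and the least of the ascending limb. Organic ion and phosphate carriers, many of them proximal, divided: of 26 tested, 12 were higher in kidney and 5 lower, with a median difference of 1.08. Slc22a6 and Slc22a8, the organic anion transporters OAT1 and OAT3, differed by 1.90 and 2.26. Slc22a6 was not called without MHCIIhi 1 (1.68), MHCIIhi 2 (1.44), kidney 1 (1.83) or kidney 2 (1.73).

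Podocyte genes, from the glomerular filter, were mixed. Of 8 tested, 3 were higher in kidney, 1 was lower and 4 were not called, with a median difference of -0.29, and without MHCIIhi 2 the count of lower genes was 3. The podocyte-defining gene Nphs1, nephrin, was at -4.66, -3.79 and -3.81 in kidney and was not above background on any MHCIIhi array, which made it at least 1.94-fold higher, a call lost with normexp background (0.45). Wt1, a podocyte transcription factor, was at least 16.2-fold higher. Podxl, which podocytes share with endothelium, was at -0.57, 1.17 and 1.02 against -5.43, -6.49 and -5.89, with its lowest kidney value on kidney 1. Ptpro, a receptor phosphatase of podocytes, was lower in kidney, with a difference of -5.0.

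Endothelial markers were also present on the kidney arrays. Of 17 tested, 16 were higher in kidney and none lower, with a median difference of 7.42, and all 17 were above background on every kidney array against 7 on each MHCIIhi array. Emcn, endomucin, was at 3.58, 4.84 and 4.47 in kidney and at -7.60, -7.43 and -6.75 in MHCIIhi cells, at least 649-fold higher. Pecam1, CD31, was at -0.91, 0.73 and 0.45 against -7.01, -7.27 and -5.18, at least 35.1-fold higher. Kidney 1 was the lowest of the kidney arrays for both. The list summed to 67.3, 161 and 119 on kidney 1, 2 and 3 and to 1.08 to 1.29 on the MHCIIhi arrays, and its part in the other genes higher in kidney was not tested.

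Genes of fibroblasts and smooth muscle summed to 40.5, 63.4 and 52.4 in kidney and to 30.1 to 35 in MHCIIhi cells, with 10 of 15 tested genes higher in kidney and 1 lower. Ren1, renin, which smooth muscle-derived cells of the afferent arteriole secrete, was at 2.99, 3.29 and 3.14 against -6.05, -7.28 and -4.42. For Col1a1, called higher, and Acta2, called lower, averaging all probes of the gene turned the sign. Urothelial genes summed to 9.35, 14.5 and 11.2 against 6.07 to 8.13, with 8 of 10 tested genes higher in kidney. Upk2, a uroplakin of the bladder lining, was at least 48.5-fold higher. Neuron and glia markers had 2 of 6 tested genes higher and 1 lower. What these markers contribute to other genes was not tested.

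Blood cell markers went mostly the other way. Macrophage and dendritic cell genes had 2 of 12 tested higher in kidney and 7 lower, T cell genes 2 of 15 higher and 7 lower, and B cell genes 1 of 8 higher and 6 lower. Ptprc, whose call was lost as given above, is among the higher genes of the first and second of these lists. The granzyme Gzma, of intraepithelial lymphocytes, was at 0.45, -0.86 and 0.38 in MHCIIhi cells and not above background in kidney, at least 62.6-fold lower there. Csf1r, the macrophage growth factor receptor, was instead higher in kidney, at 0.66, 0.80 and 0.63 against -4.72, -5.04 and -4.38. Lyz2, lysozyme M of myeloid cells, was lower in kidney by 6.95. The summed macrophage list, 101 to 176 in MHCIIhi cells against 3.84 to 7.7 in kidney, holds this gene. Lyz1, the lysozyme of Paneth cells, was bright in MHCIIhi cells too, and whether the Lyz2 probe also reads it was not tested. T cell genes summed to 6 to 10.1 against 3.32 to 3.68, and their part in the genes lower in kidney was not tested.

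**Figure D2:**
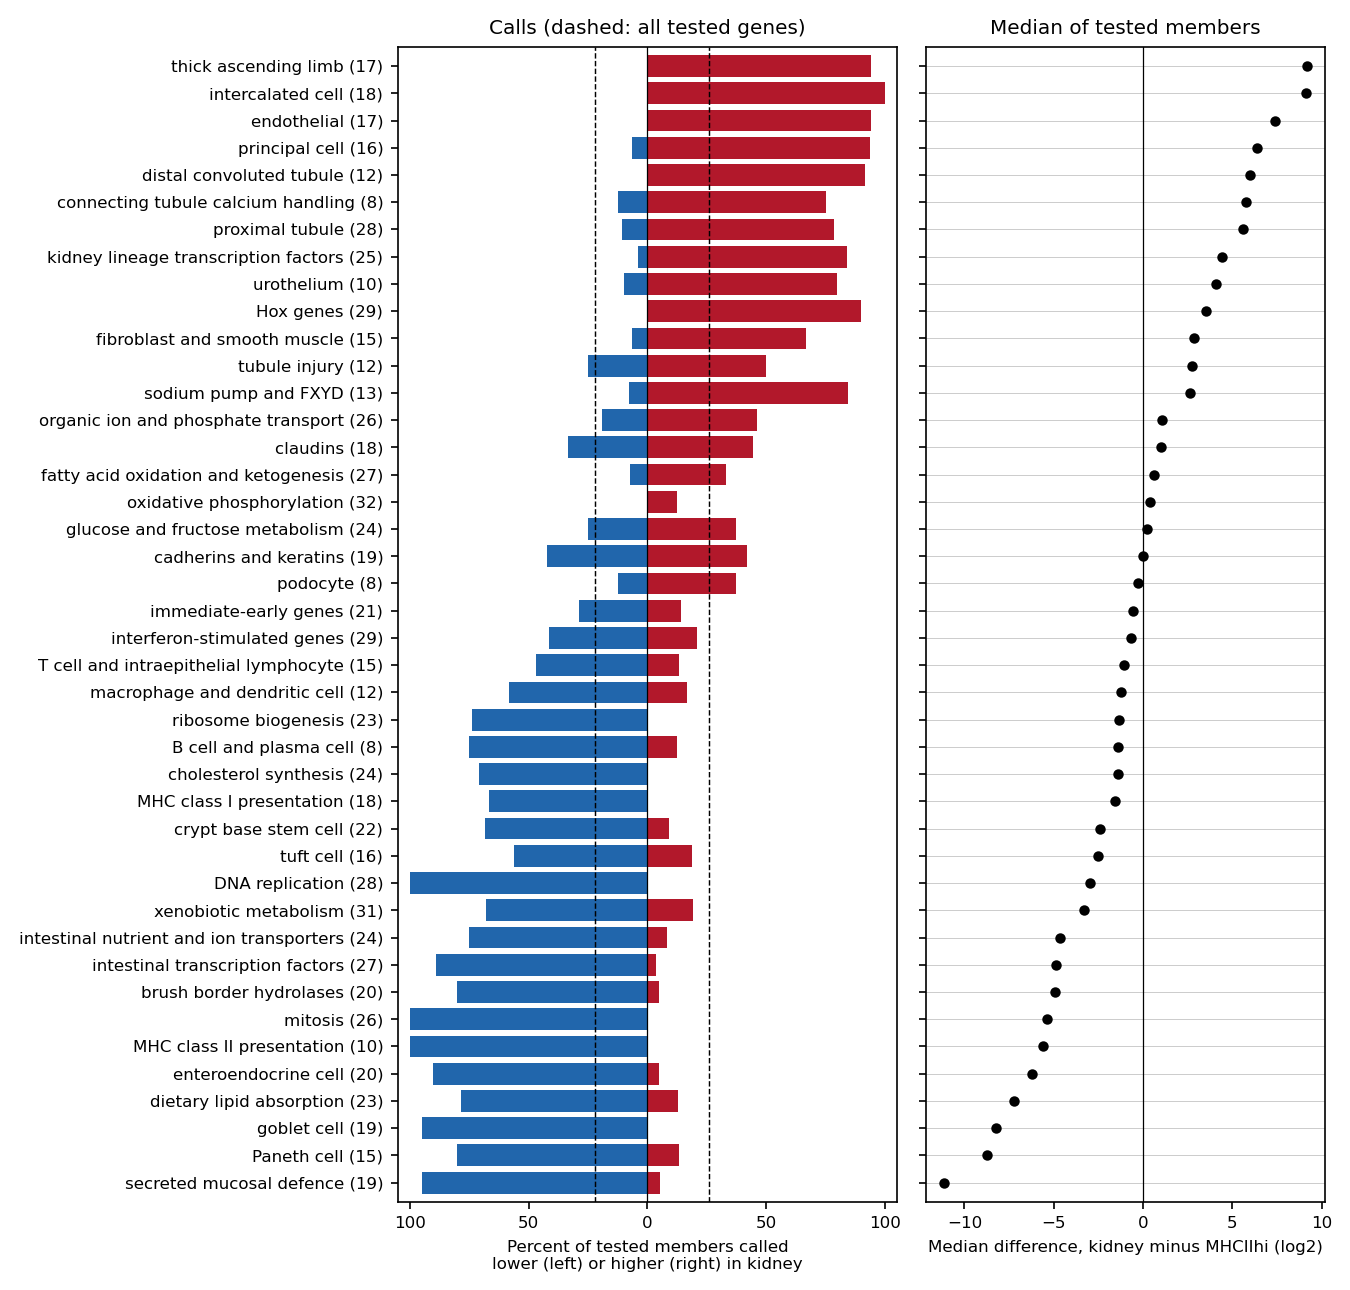
For each list with at least 8 tested members (number in brackets), the left panel shows the percent called higher (right, red) and lower (left, blue) in kidney, with dashed lines at the 26% and 22.2% of all tested genes, and the right panel shows the median difference (log2). Thick ascending limb and intercalated cell genes lie at the top with medians of 9.17 and 9.13, and secreted mucosal defence genes at the bottom with -11.16.

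Transcription factors that specify the nephron were higher in kidney for 21 of 25 tested genes and lower for 1, with a median difference of 4.43. Pax8, required for nephron formation, was at 0.11, -0.40 and -0.68 in kidney and at -3.22, -3.67 and -1.96 in MHCIIhi cells, a difference of 2.63 (adjusted p = 0.0024). Its partner Pax2 was low in both, at -3.76, -3.82 and -3.75 against -4.87, -5.11 and -3.50, and was not called. The groups of Pax8 did not overlap and those of Pax2 did, and without MHCIIhi 3 Pax2 was called with a difference of 1.22. Gata3, a regulator of the collecting duct, was at 2.46, 2.33 and 2.32 against -7.45, -7.28 and -5.84, at least 170-fold higher. Irx1, an Iroquois factor of the mid-nephron, differed by 8.97, and the orphan receptor Esrrb was at least 119-fold higher. Osr2 was the gene lower in kidney, at -2.15, -1.75 and -1.66 against 0.84, 1.02 and 0.96.

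Homeobox genes of the Hox clusters, which hold a cell's position along the body axis, were higher in kidney for 26 of 29 tested genes and lower for none. Their median difference was 3.55, or 3.17 with bounds, and a further 9 of the 38 Hox genes on the array were not tested. Hoxd8 was at 3.09, 3.17 and 3.36 in kidney and at -7.11, -6.97 and -6.42 in MHCIIhi cells, at least 304-fold higher. Hoxa10, of the posterior groups, was at 1.33, 0.70 and 0.78 and at least 63.1-fold higher, and Hoxc9 at least 83.8-fold. No MHCIIhi array was above background for these genes. Hoxa3, Hoxc4 and Hoxc5 differed by -0.27, 0.13 and 0.89 and were not called.

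Intestinal transcription factors formed the mirror image. Of 27 tested, 24 were lower in kidney and 1, Prox1, was higher (not called with normexp background, 0.92), with a median difference of -4.86, or -4.05 with bounds. Cdx2, the homeobox gene that fixes intestinal identity, was at 4.25, 3.95 and 4.23 in MHCIIhi cells and at -8.09, -7.51 and -8.43 in kidney, at least 1120-fold lower in kidney. Isx, a homeobox regulator of vitamin A uptake, was at 4.64, 4.45 and 4.38 against -8.04, -6.36 and -8.32, at least 1420-fold lower, and Cdx1 was at least 233-fold lower. No kidney array was above background for these factors. Spdef, which drives goblet and Paneth maturation, was at least 207-fold lower.

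The nuclear receptor genes Hnf4a and Hnf4g, regulators of absorptive epithelium, were lower in kidney. Hnf4a was at 1.32 on kidney 1 and at -1.14 and -1.44 on kidney 2 and 3, below MHCIIhi values of 3.54, 3.68 and 3.69, and its difference of -4.05 became -4.92 without kidney 1. Hnf4g was above background on 2 kidney arrays and differed by -6.76.

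Promoters from RefSeq (GRCm38.p6, 250 bases before to 50 after each start) were searched on both strands for letters that CDX and HNF4 factors are known to bind and for the general TATA and CCAAT letters. A promoter was found for 11643 of the tested genes, with 14774 starts. The CDX letters TTTATGG stood in 1.96% of these promoters, in 2.19% of those of genes higher in kidney and in 2.2% of those lower, and the HNF4 letters CAAAGTCCA in 0.514%, 0.252% and 0.955%, in the same order. The TATA letters TATAAA stood in 8.8%, 9.32% and 11.0% and the CCAAT letters CCAATCAG in 4.91%, 3.83% and 6.11%. None of these strings contains another, and a match of letters describes the sequence and does not show binding. CDX letters were thus in near the same share in both directions, and HNF4 letters were in a larger share of promoters of genes lower in kidney, differences that were not tested.

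Promoters of 3 described genes are shown for where these letters fall, as the 200 bases before a start, with the matched letters in capitals.
For Lgals2, a lectin of the intestinal epithelium, the CDX letters lie 68 bases before the start (chr15:78855530-78855729, minus strand). Lgals2 was at 8.6, 8.82 and 8.63 in MHCIIhi cells and at -5.87, -6.19 and -6.10, below background, in kidney, at least 25900-fold lower.
Lgals2: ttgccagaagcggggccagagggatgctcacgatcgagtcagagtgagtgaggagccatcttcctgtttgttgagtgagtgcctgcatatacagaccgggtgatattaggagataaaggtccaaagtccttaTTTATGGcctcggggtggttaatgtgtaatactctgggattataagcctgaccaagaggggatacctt
For Epcam the CDX letters lie 29 bases before the start on the reverse strand (chr17:87635779-87635978, plus strand).
Epcam: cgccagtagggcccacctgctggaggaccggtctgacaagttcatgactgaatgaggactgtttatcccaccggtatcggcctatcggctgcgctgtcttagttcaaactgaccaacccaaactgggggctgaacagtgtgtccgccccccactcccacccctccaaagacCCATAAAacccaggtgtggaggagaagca
For Cyp3a11, a drug-metabolising cytochrome lower in kidney by 3.54, the HNF4 letters lie 109 bases before the start (chr5:145879855-145880054, minus strand).
Cyp3a11: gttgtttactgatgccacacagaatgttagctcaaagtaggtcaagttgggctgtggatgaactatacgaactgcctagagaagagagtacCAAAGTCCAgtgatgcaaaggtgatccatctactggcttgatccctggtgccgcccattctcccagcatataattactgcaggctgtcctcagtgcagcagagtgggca
All 3 genes were lower in kidney, and Epcam was used in both sorts. The CDX letters also stood in promoters of Slc26a4 and Lcn2 and the HNF4 letters in that of Trpv6, all higher in kidney.

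**Figure D3:**
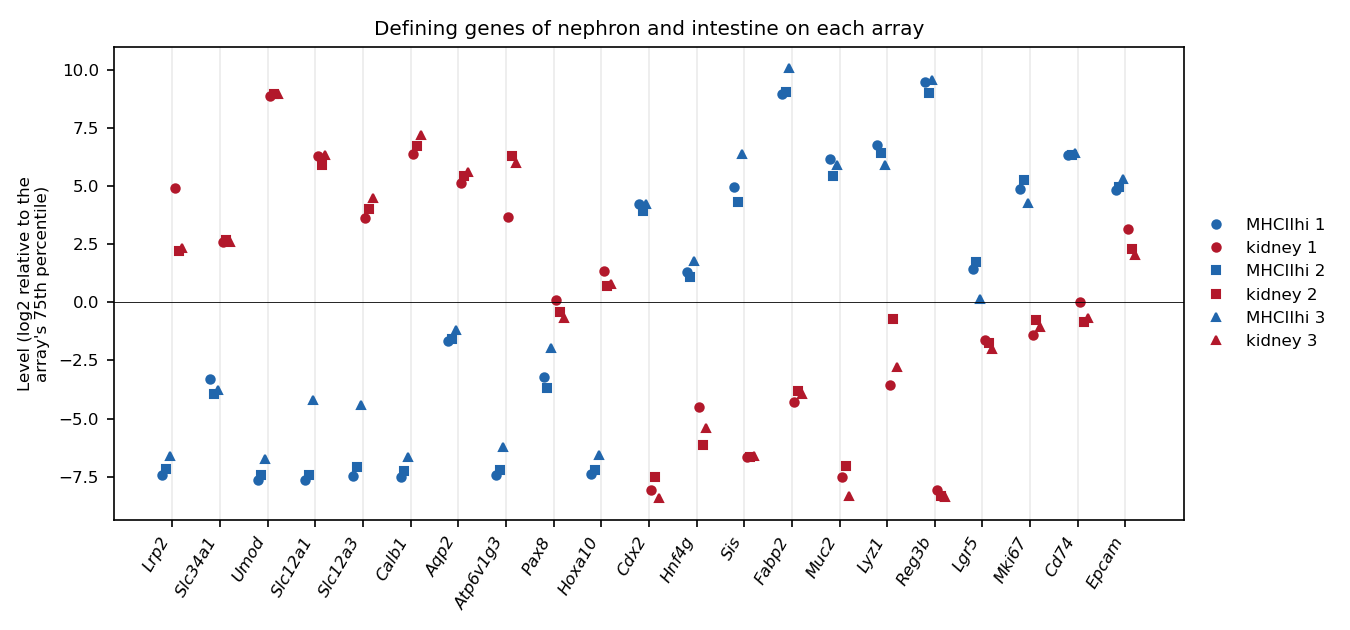
Level of 21 defining genes of nephron and intestine on each array (log2 relative to the array's 75th percentile), with kidney in red, MHCIIhi in blue and symbols for replicates 1 to 3. The groups do not overlap for any gene shown, and Lrp2 is highest on kidney 1 at 4.93.

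Brush border enzymes, many of which the kidney and the gut share, were lower in kidney for 16 of 20 tested genes and higher for 1, with a median difference of -4.95. Sis, sucrase-isomaltase, was at 4.96, 4.31 and 6.39 in MHCIIhi cells and at -6.65, -6.66 and -6.61, below background, in kidney, at least 2360-fold lower. Anpep, aminopeptidase N, was measured in both, at 4.71, 3.75 and 3.29 in kidney against 8.75, 7.87 and 9.38, a difference of -4.75 (standard error 0.49). Vil1, villin of the microvillus core, was at 2.13, 0.59 and 0.53 against 7.71, 7.34 and 8.33. MHCIIhi 3 was the highest intestinal array and kidney 1 the highest kidney array for all of these except Sis in kidney, where the arrays lay together. The gene higher in kidney was Alpl, tissue-nonspecific alkaline phosphatase, at 0.42, 0.37 and 0.23 in kidney, at least 41.7-fold higher. Mme, neprilysin, and Ggt1, gamma-glutamyltransferase, differed by 0.41 and -0.84 and were not called.

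Genes of dietary lipid uptake and chylomicron assembly were lower in kidney for 18 of 23 tested and higher for 3, with a median difference of -7.22. Fabp2, the intestinal fatty acid-binding protein, was at 8.98, 9.06 and 10.07 in MHCIIhi cells and at -4.30, -3.83 and -3.96 in kidney, a difference of -13.40 measured on all 6 arrays. Apoa1, the main protein of high-density lipoprotein, was at 6.39, 6.03 and 7.49 against kidney values of -6.68, -7.98 and -8.11, below background, at least 6300-fold lower. Apob, the chylomicron scaffold, was at -1.76, -5.57 and -4.56 in kidney, highest on kidney 1, and at 2.88, 2.56 and 4.35 in MHCIIhi cells, a difference of -7.22, or -8.33 without kidney 1. The groups of each gene did not overlap. Higher in kidney were Scarb1, the lipoprotein receptor SR-BI, by 4.83, the fatty acid receptor Cd36 by 3.32 and Apoe by 3.18. Cd36 is also made by endothelium, whose markers were high in kidney, and its source was not tested.

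Nutrient and ion transporters of the gut had 18 of 24 tested genes lower in kidney, 2 higher and 4 not called. Slc51a, a subunit of the bile salt exporter, was at 4.91, 4.78 and 6.2 in MHCIIhi cells and at -3.67, -2.83 and -2.89 in kidney. Slc39a4, the zinc importer, differed by -6.19 and Cftr, the chloride channel of crypts, by -6.15. The genes higher in kidney were Cybrd1, a ferric reductase, by 2.29, or 0.66 and not called with normexp background, and Slc9a3, the sodium-proton exchanger NHE3, by 1.21. Slc9a3 was not called without MHCIIhi 1 (1.13), MHCIIhi 2 (0.93), kidney 2 (1.22) or kidney 3 (0.95). Nor was it called with the mean of its probes (0.36) or with the authors' value table (0.94). The iron genes Slc11a2 and Slc40a1 and the glucose carrier Slc2a2 differed by 0.55, 0.49 and 0.37 and were not called.

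Of 16 pairs of related genes chosen for comparison, 9 were called in opposite directions, 2 in the same direction, and 5 had a gene that was not called. Slc5a2, the glucose carrier SGLT2, was at 0.99, 1.12 and 1.29 in kidney and at -6.28, -6.00 and -4.21 in MHCIIhi cells. Slc5a1, the SGLT1 carrier of gut and late proximal tubule, was at -0.47, -0.29 and 0.34 in kidney and at 1.56, 0.96 and 2.57 in MHCIIhi cells. The differences were 6.63 and -1.84. Slc15a2, the high-affinity peptide carrier PEPT2, was higher in kidney by 4.18, and the gut carrier Slc15a1, PEPT1, lower by 6.11. The phosphate carriers Slc34a1 and Slc34a2 differed by 6.31 and -4.38, and the amino acid carriers Slc6a18 and Slc6a19 by 5.8 and -4.86. The sodium-potassium-chloride cotransporters Slc12a1 and Slc12a2, the second a basolateral form, differed by 12.61 and -2.62. The calcium channels Trpv5 and Trpv6 were both higher in kidney, and Hnf4a and Hnf4g both lower. Alpi, the intestinal alkaline phosphatase, differed by -0.50 and was not called, but it was called lower with the mean of its probes (-5.04). One gene was not called in the pairs of Atp6v1b1, Esrrg, Slc22a6 and Pax8 either.

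The adhesion molecules Cdh16 and Cdh17 were the most widely split pair. Cdh16, kidney-specific cadherin, was at 8.28, 8.03 and 8.04 in kidney and at -5.8, -5.8 and -4.17 in MHCIIhi cells, above background on 1 of these. Cdh17, liver-intestine cadherin, was at -7.77, -8.14 and -8.18 in kidney and at 4.29, 4.38 and 5.03 in MHCIIhi cells, at least 1500-fold lower in kidney. The differences were 13.37 and -12.60. Cdh1, E-cadherin, differed by -0.56 (adjusted p = 0.018), under the size needed for a call.

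**Figure D4:**
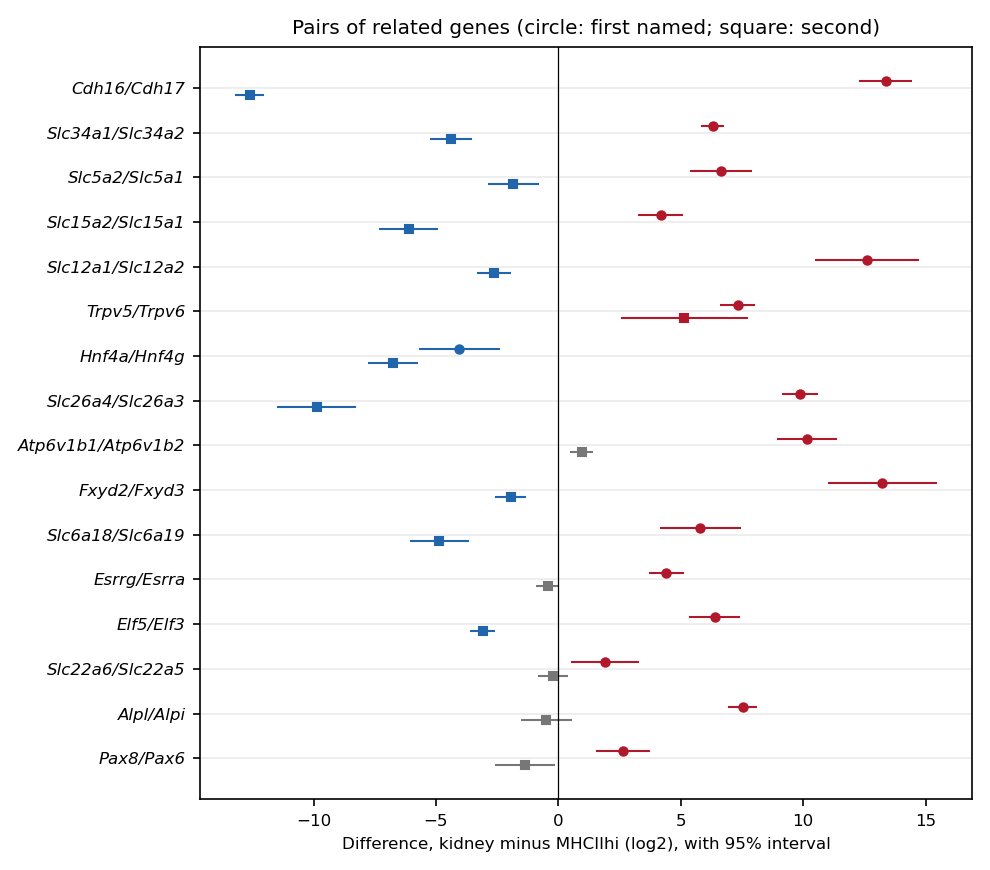
Difference, kidney minus MHCIIhi (log2), with its 95% interval for 16 pairs of related genes, the first named of each pair as a circle and the second as a square; red marks genes called higher in kidney, blue lower and grey not called. Cdh16 and Cdh17 stand at 13.37 and -12.60, and Trpv5 and Trpv6 lie on the same side.

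The secretory cells of the gut were read by type. Goblet cell genes were lower in kidney for 18 of 19 tested and higher for none, with a median difference of -8.21. Muc2, the gel-forming mucin, was at 6.18, 5.46 and 5.93 in MHCIIhi cells and at -7.53, -7.05 and -8.34 in kidney, at least 3660-fold lower. Tff3, trefoil factor 3, was at 8.72, 8.11 and 8.91 against -8.04, -7.47 and -8.37, at least 24200-fold lower. Agr2, which folds mucins in the endoplasmic reticulum, was measured on all arrays, at 7.67, 7.23 and 7.08 against -4.89, -4.36 and -4.50. Kidney arrays were without measured Muc2 and Tff3, and had Agr2 far below the intestinal level.

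Paneth cell genes were lower in kidney for 12 of 15 tested and higher for 2, with a median difference of -8.73. Lyz1, lysozyme, was at 6.77, 6.45 and 5.93 in MHCIIhi cells and at -3.57, -0.70 and -2.78 in kidney, and Mmp7, which activates defensins, was at 4.90, 4.08 and 3.46 against -3.93, -4.52 and -4.77. The alpha-defensin Defa5 was at least 45100-fold lower in kidney, although defensin genes are near-identical copies and a probe may read several of them. The exceptions Kit and Cd24a were higher in kidney by 3.14 and 1.15, the second not called with the authors' value table (0.87), and neither is made by Paneth cells alone.

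Enteroendocrine genes were lower in kidney for 18 of 20 tested and higher for 1, Cpe, a prohormone carboxypeptidase (2.47). Chga, chromogranin A, was at 3.37, 2.78 and 3.26 in MHCIIhi cells and not above background in kidney, at least 556-fold lower. Hormone genes in the list included Gip, at least 64.7-fold lower, and secretin, Sct, with a difference of -7.88. Tuft cell genes were divided, with 9 of 16 tested lower in kidney and 3 higher. Trpm5, the taste channel of tuft cells, was at 0.40, -1.78 and -1.02 in MHCIIhi cells and at least 36.2-fold lower in kidney. Ptgs1, cyclooxygenase 1, which collecting duct and endothelium also make, was higher in kidney by 4.18.

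Secreted mucosal defence genes, some of them goblet or Paneth products counted above, were lower in kidney for 18 of 19 tested and higher for 1, with a median difference of -11.16, or -8.90 with bounds. Reg3b, an antibacterial lectin, was at 9.47, 9.01 and 9.58 in MHCIIhi cells and at -8.08, -8.33 and -8.37, below background, in kidney, at least 41400-fold lower (difference -17.61, standard error 0.21, adjusted p = 9.8e-08). Pigr, which carries IgA and IgM across epithelium, was measured in both, at -0.62, -0.52 and -0.86 in kidney and at 5.98, 5.83 and 5.92 in MHCIIhi cells. The arrays of each group lay close together for both genes. The exception Lcn2, the iron-chelating lipocalin NGAL, was at -0.94, -1.44 and -1.92 in kidney and at -4.96, -6.45 and -6.61 in MHCIIhi cells, above background on 1 of these, a difference of 4.57.

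Crypt stem cell genes were lower in kidney for 15 of 22 tested and higher for 2, with a median difference of -2.38. Lgr5, a receptor of the Wnt pathway, marks crypt base stem cells. It was at 1.43, 1.72 and 0.16 in MHCIIhi cells and at -1.61, -1.74 and -2.0 in kidney. The difference was -2.89 (adjusted p = 0.00086, limma). Olfm4 was at 2.44, 3.00 and 1.87 against -4.71, -5.03 and -5.07. MHCIIhi 3 was the lowest intestinal array for both, and no kidney array reached it. Bmi1, a Polycomb gene, and Znrf3, a brake on Wnt receptors, were higher in kidney by 1.79 and 1.93.

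Every tested gene of the cell cycle lists was lower in kidney: 28 of 28 for DNA replication, with a median difference of -2.96, and 26 of 26 for mitosis, with -5.38. Mki67, the proliferation antigen Ki-67, was at -1.41, -0.76 and -1.08 in kidney and at 4.90, 5.27 and 4.29 in MHCIIhi cells. Top2a, which untangles chromosomes, was at -4.91, -4.45 and -5.38 against 1.83, 2.29 and 1.23. Pcna, the replication clamp, also used in DNA repair, was at 2.77, 2.77 and 2.69 against 4.46, 4.63 and 4.04. The separation was wider for the mitotic genes, Mki67 and Top2a, than for Pcna, with differences of -5.91, -6.70 and -1.63. MHCIIhi 3 had the lowest level of all 26 mitotic genes within its group, and kidney lay below it. The mitotic list summed to 186, 253 and 113 on MHCIIhi 1, 2 and 3 and to 3.43, 4.68 and 3.81 in kidney.

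Ribosome biogenesis genes were lower in kidney for 17 of 23 tested and higher for none, with a median difference of -1.37. Myc, which promotes growth and ribosome synthesis, was at -1.01, -0.82 and -0.71 in kidney and at 1.42, 1.33 and 0.97 in MHCIIhi cells. Nolc1, a nucleolar phosphoprotein, differed by -3.13. Ncl, nucleolin, differed by -1.16 and was not called without MHCIIhi 2 (-0.93) or with quantile normalization (-0.72). Npm1, of the same list, differed by -1.25, and by -0.68 and not called with quantile normalization.

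Respiratory chain genes were close to equal. Of 32 tested, 4 were higher in kidney and none lower, with a median difference of 0.41. Sdha, of complex II, was at 4.00, 3.60 and 4.04 in kidney and at 2.33, 2.74 and 2.50 in MHCIIhi cells, a difference of 1.36. Ndufs1, of complex I, differed by 1.21, but by 0 with the mean of its probes and by 0.94 with the authors' value table, and was called in neither. Fatty acid oxidation genes had 9 of 27 tested higher and 2 lower, a share near the 26% of all genes, with a median difference of 0.61. Acadm, the medium-chain dehydrogenase, was at 6.53, 4.66 and 5.06 in kidney and at 3.35, 3.39 and 3.78 in MHCIIhi cells. Its difference of 1.91 was 1.36 without kidney 1, and 1.88 and not called with the slide as a random block (adjusted p = 0.096). The thioesterase Acot2 differed by 3.25. Cpt1a, the carnitine transferase of fatty acid import, differed by 1.04 and was not called without MHCIIhi 3 (0.92), kidney 1 (1.0) or kidney 3 (0.99). Ppargc1a, a coactivator of mitochondrial genes, differed by 1.79 and was not called without kidney 3 (1.68), and Cyp4a10, called lower, changed sign when its probes were averaged.

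Some related isoenzymes of sugar metabolism went opposite ways, and part of those below were chosen for contrast after their values were seen. Of 24 tested genes, 9 were higher in kidney (37.5%) and 6 lower (25%), beside 26% and 22.2% of all tested genes. The median difference was 0.22, which lay between 0.04 and 0.49 with 1 array left out. Hexokinase 1, Hk1, was at 4.82, 5.35 and 5.37 in kidney and at 0.51, 0.33 and 0.73 in MHCIIhi cells. Hexokinase 2, Hk2, was at -5.99, -5.30 and -5.12 in kidney, above background on 2 arrays, and at 3.19, 2.55 and 2.13 in MHCIIhi cells. Their differences were 4.66 and -8.10, with no overlap of the groups for either. Ldhb, the heart-type lactate dehydrogenase subunit, was at 8.38, 8.37 and 8.46 against -3.03, -2.91 and -4.33, and Ldha, the muscle-type subunit, differed by -1.68. Pfkm, the muscle form of phosphofructokinase, was higher by 4.68 and Pfkp, the platelet form, lower by 1.36. Pkm, the M form of pyruvate kinase, differed by 1.48 and Pklr, the liver and red cell form, by -4.19. Fbp1, a gluconeogenic enzyme, differed by 1.75 and was not called, and by 0.78 without kidney 1. It was called in a fit of all 9 arrays (adjusted p = 0.048).

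Cholesterol synthesis genes were lower in kidney for 17 of 24 tested and higher for none, with a median difference of -1.42. Sqle, squalene epoxidase, was at 1.28, 1.09 and 1.29 in kidney and at 2.66, 3.17 and 3.75 in MHCIIhi cells, without overlap. Dhcr7, a late enzyme of the pathway, differed by -1.85, and Insig1, a sterol-regulated brake on it, by -2.12 (standard error 0.27). Hmgcs1, which makes HMG-CoA, differed by -1.07 and was not called without MHCIIhi 3 (-0.81), kidney 2 (-0.92) or kidney 3 (-0.98). Nor was it called with quantile normalization (-0.64).

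Genes of drug and xenobiotic metabolism were lower in kidney for 21 of 31 tested and higher for 6, with a median difference of -3.32. Cyp2c65 was at 2.59, 2.46 and 3.14 in MHCIIhi cells and at least 418-fold lower in kidney. Cyp4f14 was at 5.66, 5.43 and 6.81 against kidney values of -2.56, -5.92 and -6.75, of which only that on kidney 1 was above background, so that without kidney 1 no kidney array measured it. Higher in kidney were Cyp1a1, an aryl hydrocarbon receptor target, at least 23.4-fold, and the glutathione transferase Gstm1, at 6.92, 6.90 and 6.37 against 3.60, 3.64 and 3.28. Of the 6 genes higher in kidney, 4 were glutathione transferases.

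Genes of MHC class II presentation were lower in kidney for 10 of 10 tested, with a median difference of -5.6, but the intestinal cells were sorted as MHC-high, so gate and tissue cannot be told apart here. Ciita, the class II transactivator, was at -4.01, -3.46 and -3.89 in kidney and at 2.07, 1.47 and 2.08 in MHCIIhi cells. The same limit of the gate holds for Ciita. Class I presentation genes were lower in kidney for 12 of 18 tested and higher for none, with a median difference of -1.56. B2m, the class I light chain, was at 4.64, 5.30 and 4.88 against 6.79, 6.54 and 6.96. The immunoproteasome subunits Psmb8, Psmb9 and Psmb10 differed by -2.88, -3.37 and -3.42. B2m was thus bright in both tissues, without overlap of the groups.

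Interferon-stimulated genes did not move together: 6 of 29 tested were higher in kidney, 12 were lower and 11 were not called, with a median difference of -0.69. Irf8 was at -2.63, -1.73 and -2.38 in kidney and at 4.21, 4.28 and 4.07 in MHCIIhi cells. Zbp1, a sensor of Z-form nucleic acids, differed by -4.26. Ifit3 was instead higher in kidney, at 2.13, 2.41 and 2.19 against -0.06, -2.52 and -0.56, and so was Rsad2, at 1.79, 2.94 and 2.66 against -0.23, -1.58 and -0.46. Kidney 1 had the lowest kidney level for 26 of the 29 genes, and 7 rather than 6 were called higher without it. Isg15 was lower by 1.42 and was not called without MHCIIhi 1 (-1.17), MHCIIhi 3 (-1.24) or kidney 1 (-1.16).

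Sodium pump genes and their FXYD modulators were higher in kidney for 11 of 13 tested and lower for 1, with a median difference of 2.63. Fxyd2, the gamma subunit of the kidney pump, was at 7.56, 7.07 and 6.97 against -7.20, -7.22 and -3.70. It was above background on 1 MHCIIhi array, with a difference of 13.24 and a bound of at least 3911-fold. Fxyd3 was the gene lower in kidney, by 1.95. Atp4a, the gastric proton pump subunit also found in the collecting duct, was higher by 5.26.

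Claudins, which set the permeability of tight junctions, were split: 8 of 18 tested were higher in kidney, 6 were lower and 4 were not called. Cldn10, of the ascending limb and proximal tubule, was at 3.52, 3.68 and 4.15 in kidney and at least 449-fold higher. Cldn8, of the distal tubule and collecting duct, differed by 5.49. Cldn15, which forms sodium pores in the gut, was at 0.48, 1.76 and 1.56 against 5.30, 5.68 and 5.56, and Cldn23 differed by -5.63. Cldn5, at least 60.9-fold higher in kidney, is an endothelial claudin.

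Of 19 cadherin, keratin and related surface genes tested, 8 were higher in kidney, 8 were lower and 3 were not called. Krt8, Krt18, Krt19, Krt20 and Krt23 were lower in kidney, and Krt5, Krt7, Krt15 and Krt80 higher. Krt20, which marks mature villus cells, was at -1.44, -0.91 and -1.13 in kidney and at 7.80, 7.53 and 8.75 in MHCIIhi cells. Krt8, the filament partner of Krt18, was bright in both, at 4.73, 5.08 and 4.98 against 9.18, 9.19 and 9.59. Krt5, a basal cell keratin of urothelium, was higher in kidney by 5.13 and Krt80 at least 23.6-fold, and Krt14 differed by -0.02 and was not called.

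Genes that respond to cell handling and tubule injury were also read, because the tissues had been released differently. Immediate-early genes had 3 of 21 tested higher in kidney and 6 lower, with a median difference of -0.54. Fos was at 5.28, 5.35 and 5.35 in kidney and at 5.62, 5.44 and 5.07 in MHCIIhi cells, and Jun at 3.46, 3.59 and 3.37 against 3.46, 3.38 and 3.25. The groups overlapped for both. Ccn2, connective tissue growth factor, was higher in kidney, at 2.81, 3.19 and 3.38 against -6.72, -6.09 and -4.04, above background on 1 MHCIIhi array. Of 12 genes linked to tubule injury, 6 were higher in kidney and 3 lower. Spp1, osteopontin, which distal tubules also make at rest, was at 7.62, 7.41 and 7.32 against -7.26, -7.03 and -6.66, at least 5770-fold higher. Vcam1 was at least 72.4-fold higher, and Havcr1, kidney injury molecule 1, was at -5.67, -5.39 and -4.31 in kidney while all MHCIIhi arrays had it not well above background. It was not called, although it was without MHCIIhi 3, with its probes averaged, with all 9 arrays and with the replicate block. The part of tissue release in these differences was not tested.

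Within kidney, the spread between replicates lay mainly between kidney 1 and the rest. Of the 100 genes that varied most between the kidney arrays, 90 were highest on kidney 1, 10 on kidney 2 and none on kidney 3. Akr1c18, a hydroxysteroid dehydrogenase, was at 3.52 on kidney 1 and at -4.46 and -4.36 on kidney 2 and 3. Aadat, an aminoadipate transaminase, was at 6.75 against -0.68 and -0.54, and Slc7a12, an amino acid transporter, at 4.53 against -2.04 and -2.21. Hsd3b5, another steroid enzyme, was at 4.81 against -1.09 and -0.90. Ifi44, an interferon-stimulated gene, ran the other way, at -3.61 on kidney 1 and at 1.14 and 1.07 on kidney 2 and 3, as did Cyp4b1, at -0.13 against 3.34 and 2.89. Across lists, proximal tubule genes deviated from their kidney mean by a median of 0.91, -0.29 and -0.60 on kidney 1, 2 and 3, and endothelial genes by -0.64, 0.51 and 0.13. These orders ran together with the Xist and Y-linked difference between the same arrays, and with 1 pool on that side their relation was not tested.

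**Figure D5:**
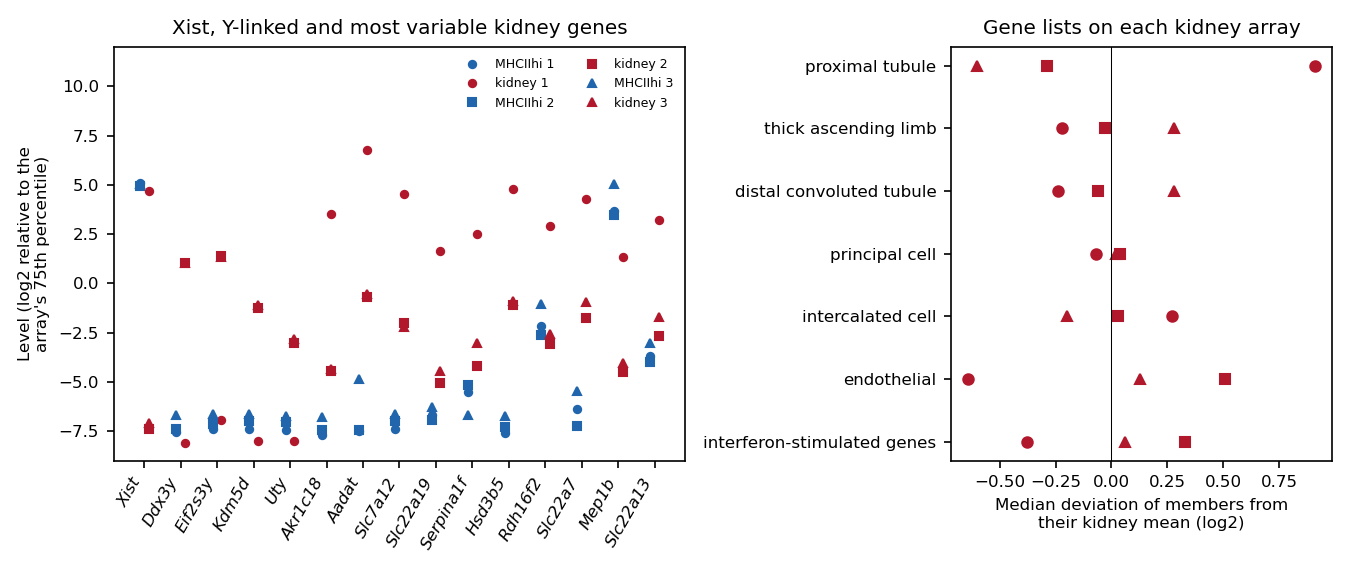
Left, level of Xist, 4 Y-linked genes and 10 of the genes that vary most between kidney arrays, on each array (log2 relative to the array's 75th percentile; kidney red, MHCIIhi blue). Right, median deviation of 7 lists from their kidney mean on each kidney array (log2): kidney 1 is highest for proximal tubule genes at 0.91 and lowest for endothelial genes at -0.64.

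The MHCIIhi arrays varied more, with a median standard deviation of 0.27 per gene against 0.16 in kidney, and for 54.8% of genes MHCIIhi 3 lay farthest from its group mean. On MHCIIhi 3, 18 of 20 brush border genes and 20 of 23 lipid absorption genes had their highest intestinal level, and 26 of 26 mitotic and 20 of 22 stem cell genes their lowest. MHCIIhi 3 was scanned on another slide than MHCIIhi 1 and 2, and the part of the slide was not tested.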

How the data were processed

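RNA from sorted cells had been labelled with Cy3 and hybridised to 1-colour Agilent whole mouse genome arrays, 1 per sample. The deposited scanner files hold the spot intensity that, per the file headers, Agilent's extraction software (Feature Extraction, version 10.5.1.1) produced, background-subtracted and detrended and not scaled between arrays. Probe positions in them are in mm8. The authors' value table, an intensity divided by each array's median as checked against the scanner files, served as an alternative.

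Here log2 processed signal minus the 75th percentile of each array's non-control probes was used, outlier spots left out, spots of a probe averaged, and each gene represented by whichever of its probes was brightest on average. Of 41174 probes, 24375 were named by RefSeq accession, 115 by another accession of the probe, 6234 by symbol and 10450 kept the name in the file. Genes were tested with limma 3.58.1 in R 4.3.3 (lmFit and eBayes on the 6 arrays, no covariates), with Benjamini-Hochberg adjustment over 19859 genes. The labels describe independent replicates of pooled mice, so p-values measure the spread between pools. Array number, 3 per group, limits precision. The fit was tested on simulated data. Genes named in the text are gate markers, the 8 largest measured differences and 6 largest bounds per direction, the first 3 and up to 4 called genes per direction of each list, both genes of each pair, and a few others chosen after their values were seen: these are the list members given for contrast, Xist, the Y-linked genes, the variable kidney genes and the genes of the closing observations. Members and lists were chosen with earlier results of these data known. Alternatives covered scaling, background, the filter, probes, the variance prior, all 9 arrays, the slide, thresholds and left-out arrays, and, chosen after seeing the data, kidney 1 alone. A few genes are not reported here.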

Additional observations from a re-analysis of the deposited data

How the results depend on the processing

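With normexp background 6350 genes were called, 2909 of them lower in kidney, and with no filter on dim genes 8192 were lower. Restricted to genes above background on all 6 arrays, 2675 were higher in kidney, and a minimum difference of 2 gave 5242 genes, 3175 higher and 2067 lower. Under the other 16 settings, which include each left-out array, counts of called genes and of those higher and lower lay within 1.5 times of those reported. The authors' value table gave 4497 higher and 5592 lower, 44.6% higher, with a shift of the median gene by -0.28. Leaving out 1 array gave 9183 to 9787 called genes, 4985 to 5383 higher and 4198 to 4716 lower. With the mean of a gene's probes, Acta2 turned to 2.22, Col1a1 to -0.16, Cyp4a10 to 1.78 and Ptprc to -0.24, and the cause was not tested. Replicate numbers did not pair the samples (correlations of deviations -0.11, -0.01 and -0.14), and with the replicate block 9516 genes were called. With the slide as a random block 8609 were called. With kidney 1 alone, where only the MHCIIhi arrays give the spread, 7445 were called. Over all settings and named genes, a call was lost 200 times and gained 35 times. Dim genes give bounds only, and equal levels of genes that were not called are not shown beyond their intervals.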

Other observations

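The following families were read by the start of their gene symbols, chosen after the values were seen. Over all tested genes, 26% were higher in kidney and 22.2% lower, and the family counts are to be read against these shares. The family counts are given for scaling to the 75th percentile only. Cytosolic ribosomal protein genes were lower in kidney for 75 of 81 tested and higher for 1, Rpl3l, with a median difference of -1.35. Mitochondrial ribosomal protein genes had 5 of 78 lower and 1 higher, with a median of -0.19. The 2 kinds of ribosome thus had different counts, and the difference between them was not tested. Solute carriers, the largest family read, had 106 of 307 tested higher in kidney and 81 lower. Zinc finger genes named Zfp had 94 of 295 higher and 16 lower. Potassium channel genes had 21 of 45 higher and 11 lower, with Kcnj1 highest among the differences. Collagen genes had 20 of 34 higher and 4 lower, and cytochrome P450 genes 18 of 64 higher and 28 lower.

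Some bright genes were at nearly the same level in both tissues. Quantile normalization moved Atp5a1 to 1.13, as given above with the respiratory chain genes. Equal levels are therefore given for scaling to the 75th percentile only. Cox6a1, a subunit of cytochrome oxidase, was at 8.85 in both, with an interval of the difference of -0.41 to 0.41. Slc25a5, the mitochondrial ADP/ATP carrier, differed by 0 with an interval of -0.42 to 0.42. Ctnna1, alpha-catenin of the adherens junction, differed by -0.07. These genes were picked for their equal levels, so the values are a description.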
